A study of Mus musculus with 8 samples.

Results

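The Ms4a family members described here are 7 mouse genes that are best known from blood cells, namely Ms4a7, Ms4a6b, Ms4a6c, Ms4a6d, Ms4a4b, Ms4a4c and Ms4a4d, out of 18193 genes measured. They were taken by symbol from the array's annotation, and where a gene had several probe sets the one brightest on average over the 8 arrays was used. The family was chosen by the differences between ischemic and normal kidneys in these same arrays, so these differences are given as a description and support nothing beyond themselves. Values are log2(intensity + 16) after quantile normalization, on which the lowest deposited intensity is 4.05, and every difference is ischemic minus normal on that scale, which understates changes of dim genes.

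RNA came from GFP-positive cells sorted by FACS from digested kidneys of male FSP1-eGFP mice, 6 months old, on a C57BL/6 background, and was amplified before hybridization to Affymetrix arrays. The FSP1 (S100a4) promoter drives the reporter, which is often used to mark fibroblasts, and all 8 arrays share it. The ischemic group held 5 kidneys taken at day 3 after a clamp on the vessels of the left kidney, artery and vein, was held for 45 minutes and released, with buprenorphine for pain after surgery. The normal group held 3 kidneys without ischemia, named normal in the titles and sham elsewhere.

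MS4A proteins cross the cell membrane several times and sit with other receptors at the cell surface or on inner membranes. The best known are CD20, encoded by Ms4a1, a B cell surface protein and drug target, and the beta chain of the high-affinity IgE receptor, encoded by Ms4a2, found in mast cells and basophils. Ms4a7 and the Ms4a6 genes are best known from monocytes and macrophages, whereas mouse Ms4a4b was described in T cells, where it modulates activation.

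All the Ms4a genes lie together on mouse chromosome 19. In the order of the RefSeq table of assembly GRCm38.p6, the members run Ms4a7, Ms4a4c, Ms4a4b, Ms4a6c, Ms4a6b, Ms4a4d and Ms4a6d, with Ms4a4a, which was not analysed here, next to Ms4a7. Promoter sequences from RefSeq (GRCm38.p6) were found for 6 of the 7 members, all but Ms4a6d. Over the 250 bases before the annotated start, 2 of the 170 pairs of promoters from different Ms4a genes stood apart in a local alignment. The pair of Ms4a6c and Ms4a6b matched at 148 of 180 aligned positions, and the pair of Ms4a4c and Ms4a4b at 114 of 128, while no other pair reached more than 18 matches. These 4 sequences are shown here. Over the 8 arrays Pearson's r was 0.768 between Ms4a6b and Ms4a6c and 0.365 between Ms4a4b and Ms4a4c. A link between the promoters and these values was not tested. Capitals mark the longest stretch without a mismatch that each pair shares.
Ms4a6b (chr19:11518309-11518558, plus strand): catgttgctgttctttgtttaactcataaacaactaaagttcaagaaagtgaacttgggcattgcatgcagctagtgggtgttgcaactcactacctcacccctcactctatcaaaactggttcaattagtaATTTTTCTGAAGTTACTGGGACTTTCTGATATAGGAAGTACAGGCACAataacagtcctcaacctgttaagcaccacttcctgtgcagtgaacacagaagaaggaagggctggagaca
Ms4a6c (chr19:11469118-11469367, plus strand): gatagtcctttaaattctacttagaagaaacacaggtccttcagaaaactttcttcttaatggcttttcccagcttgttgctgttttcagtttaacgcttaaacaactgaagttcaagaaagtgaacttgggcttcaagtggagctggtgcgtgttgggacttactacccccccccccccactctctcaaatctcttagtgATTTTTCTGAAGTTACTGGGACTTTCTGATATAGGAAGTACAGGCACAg
Ms4a4b (chr19:11443308-11443557, plus strand): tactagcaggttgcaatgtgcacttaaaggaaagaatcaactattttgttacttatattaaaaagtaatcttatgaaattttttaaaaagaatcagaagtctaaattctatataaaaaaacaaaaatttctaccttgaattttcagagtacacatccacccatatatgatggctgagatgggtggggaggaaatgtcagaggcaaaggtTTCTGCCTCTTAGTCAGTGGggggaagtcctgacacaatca
Ms4a4c (chr19:11407411-11407660, plus strand): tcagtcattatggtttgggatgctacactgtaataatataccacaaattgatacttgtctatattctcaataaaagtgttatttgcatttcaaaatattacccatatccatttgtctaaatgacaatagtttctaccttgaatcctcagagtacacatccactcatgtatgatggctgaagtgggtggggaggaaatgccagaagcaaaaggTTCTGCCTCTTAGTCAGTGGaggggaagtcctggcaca

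The shared stretch is 48 bases long in the Ms4a6 pair, and it lies at −118 to −71 from the annotated start in Ms4a6b and at −49 to −2 in Ms4a6c. In the Ms4a4 pair it is 20 bases long. Both strands of the same 250 bases were searched for motifs of blood cell transcription factors, chosen after the sequences were seen. The Ets core AGGAAGT occurred 2 times in the Ms4a6b promoter and 1 time in that of Ms4a6c, and 7.69% of all 32851 promoters hold it. GAGGAA, the box bound by the macrophage and B cell factor PU.1, occurred 1 time each in the Ms4a4b and Ms4a4c promoters, as in 23.3% of all promoters. The interferon response motif (2.98% of all promoters) was in none of the member promoters, and the C/EBP motif TTGCNNAA (9.56%) was found in that of Ms4a4d alone. A match describes the letters and does not show binding.

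Before the values, 3 features of the arrays matter. Xist, the RNA of the inactive X chromosome of females, was at 11.19 in ischemic 1, 9.39 in ischemic 2 and 11.01 in normal 1, against 4.49 to 4.96 in the other 5 arrays, although the labels call all mice male. Y-linked Eif2s3y was at 5.84 in both ischemic 1 and normal 1, and between 7.68 and 8.87 in the other 6 arrays. Ischemic 1 also stood apart over all genes, since its correlations with the rest had a median of 0.752, where the medians of the others lay between 0.850 and 0.913. Results that rest on these arrays are therefore given with and without them. S100a4 was bright in both groups and differed by 0.36 ± 0.25 (SE, n = 5 and 3), with a limma adjusted p of 0.897. An exact permutation test of it over all 56 splits, two-sided, gave p = 0.179.

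All 7 members had a higher mean in cells from ischemic kidneys, where 54.8% of all genes had a positive difference. The median difference was 1.06 over the 7 members and 0.041 over all genes. With arrays centred on ribosomal protein genes instead, the median over all genes was −0.13 and 35.4% of them were positive, and all 7 members stayed positive, from 0.069 to 1.35. In 4 members, Ms4a7, Ms4a6b, Ms4a6c and Ms4a6d, every ischemic array was above every normal array, which held for 1.89% of all genes. None of the 7 passed limma with Benjamini-Hochberg adjustment over all 18193 genes, with adjusted p from 0.20 to 0.964, and the share of all genes that passed was 0%. At an unadjusted limma p under 0.05, 5 of 7 members were higher in ischemic arrays, beside 2.11% of all genes, and 0 were lower, beside 5.01%. A difference of at least 1 was found in 5 members, beside 2.02% of all genes, and 0 members had groups apart with ischemic lower, beside 3.42%. Without normal 3, 112 genes passed limma, none of them a member. In these bulk samples a larger share of cells of a type and more RNA per cell cannot be told apart.

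**Figure D1:**
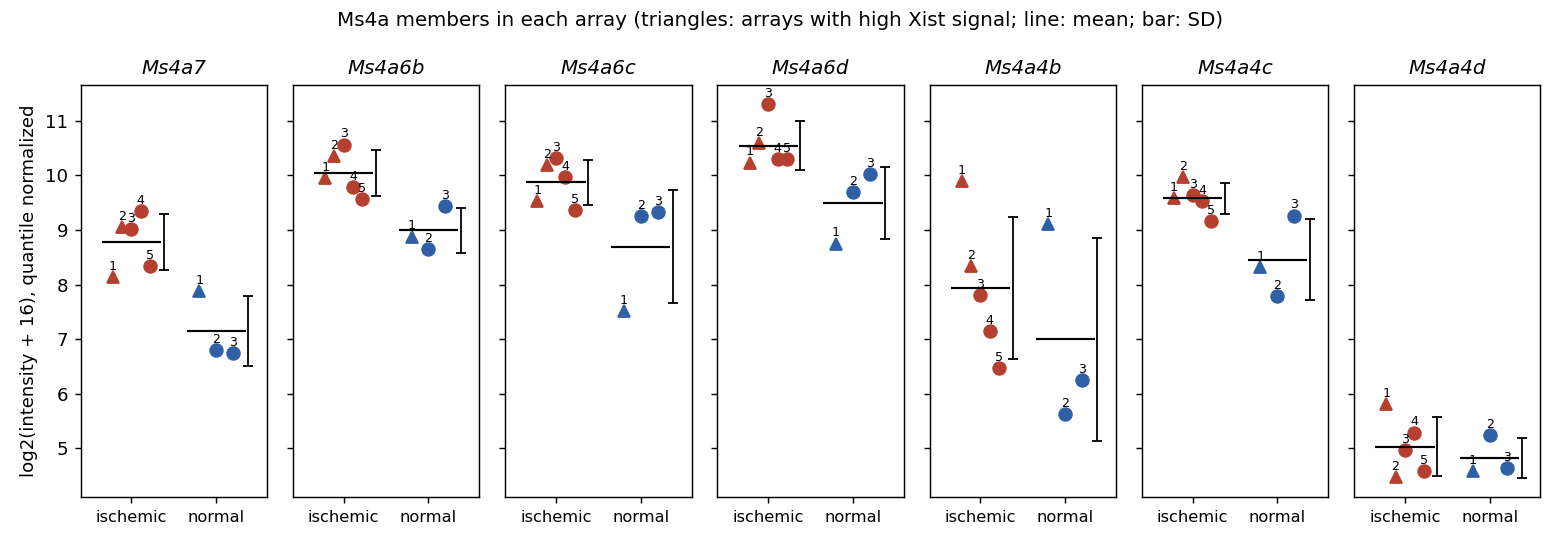
Each panel shows 1 member, with log2(intensity + 16) on the vertical axis and the ischemic (n = 5) and normal (n = 3) arrays side by side. Numbers are replicate numbers, triangles are the 3 arrays with high Xist signal, lines are means and bars are SD. In Ms4a7 and the Ms4a6 genes the groups do not overlap, and in Ms4a4b the 3 triangles are the highest points.

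Ms4a7, a gene of monocytes and macrophages, had the largest difference of the 7. It was at 8.13, 9.05, 9.02, 9.34 and 8.34 in ischemic arrays 1 to 5, against 7.89, 6.80 and 6.75 in normal arrays 1 to 3. The groups did not overlap, and normal 1 came close to ischemic 1. The means were 8.78 ± 0.51 (SD) in the 5 ischemic arrays and 7.14 ± 0.64 (SD) in the 3 normal ones. The difference was 1.63 ± 0.38 (SE), or 3.10-fold, with a limma adjusted p of 0.20.

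Ms4a6b, the second of the genes with groups apart, was at 9.95, 10.36, 10.57, 9.78 and 9.56 in ischemic arrays 1 to 5, against 8.88, 8.65 and 9.44 in normal arrays 1 to 3. Normal 3 was the highest normal array, just under ischemic 5. The means of 10.04 ± 0.41 (SD) in the 5 ischemic arrays and 8.99 ± 0.41 (SD) in the 3 normal ones gave a difference of 1.05 ± 0.30 (SE; limma adjusted p = 0.345). 

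Ms4a6c, whose promoter shares the long stretch shown above with Ms4a6b, was at 9.53, 10.18, 10.32, 9.98 and 9.37 in ischemic arrays 1 to 5, against 7.51, 9.25 and 9.33 in normal arrays 1 to 3. The groups were apart by a narrow margin, since ischemic 5 was only just above normal 3, and normal 1 was far below all others. The means were 9.88 ± 0.41 (SD) in the 5 ischemic arrays and 8.70 ± 1.03 (SD) in the 3 normal ones. The difference was 1.18 ± 0.45 (SE; limma adjusted p = 0.600), and without normal 1 it was 0.59.

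Ms4a6d, a gene of mouse macrophages, was at 10.24, 10.59, 11.31, 10.30 and 10.29 in ischemic arrays 1 to 5, against 8.75, 9.69 and 10.03 in normal arrays 1 to 3. Ischemic 3 was the highest array, as it was for Ms4a6b and Ms4a6c, and normal 1 was the lowest. The means of 10.55 ± 0.45 (SD) in the 5 ischemic arrays and 9.49 ± 0.66 (SD) in the 3 normal ones gave a difference of 1.06 ± 0.37 (SE; limma adjusted p = 0.508). Without normal 1 this was 0.69.

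Ms4a4c was at 9.59, 9.97, 9.64, 9.54 and 9.16 in ischemic arrays 1 to 5, against 8.32, 7.79 and 9.26 in normal arrays 1 to 3. The groups overlapped through a single pair of arrays, since normal 3 was above ischemic 5, and the other 4 ischemic arrays were above every normal array. The means were 9.58 ± 0.29 (SD) in the 5 ischemic arrays and 8.46 ± 0.75 (SD) in the 3 normal ones, a difference of 1.12 ± 0.35 (SE; limma adjusted p = 0.392). Its limma adjusted p was lowest, at 0.0904, without normal 3, where the difference was 1.53.

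Ms4a4b behaved unlike the others, with a wide spread inside both groups. It was at 9.89, 8.34, 7.81, 7.15 and 6.47 in ischemic arrays 1 to 5, against 9.12, 5.62 and 6.25 in normal arrays 1 to 3. The 3 highest arrays were ischemic 1, normal 1 and ischemic 2, the same 3 that had high Xist signal, and normal 1 was above 4 of the 5 ischemic arrays. The difference of 0.93 ± 0.94 (SE; limma adjusted p = 0.951) had a 95% interval from −1.22 to 3.09, so neither direction can be read from it. Without ischemic 1 it was 0.45, without normal 1 it was 1.99, without normal 2 it was 0.25 and without normal 3 it was 0.56.

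Ms4a4d was dim in every array, near the low end of the scale. It was at 5.81, 4.48, 4.98, 5.29 and 4.59 in ischemic arrays 1 to 5, against 4.58, 5.25 and 4.64 in normal arrays 1 to 3. The groups overlapped throughout, with a difference of 0.21 ± 0.35 (SE; limma adjusted p = 0.964) and a 95% interval from −0.59 to 1.00. Without ischemic 1 the difference was 0.0100.

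The 7 members had 14 probe sets with a single symbol, and these did not all give the same picture. For Ms4a6d a second probe set gave 1.13 ± 0.59 (SE), close to the brightest, while the remaining, dim one gave 0.087 ± 0.20. The second probe set of Ms4a4c gave 0.90 ± 0.32, also close to the brightest one. The second probe set of Ms4a7, which was dim with means of 5.38 in ischemic and 4.73 in normal arrays, gave 0.65 ± 0.63. Lower values came from the second probe sets of Ms4a6b, at 0.11 ± 0.58, and Ms4a6c, at 0.37 ± 0.92. The second probe set of Ms4a4b gave −0.029 ± 0.71, with its highest arrays normal 1 at 7.71 and ischemic 1 at 7.60, so the wide spread of Ms4a4b was seen by both. The suffixes _s_at, on the probe sets of Ms4a6d and Ms4a4c used here, and _x_at mark probe sets that may bind more than 1 related transcript. Whether other family members, such as Ms4a4a, add signal to these probe sets was not tested, since probe sequences were not compared.

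**Figure D2:**
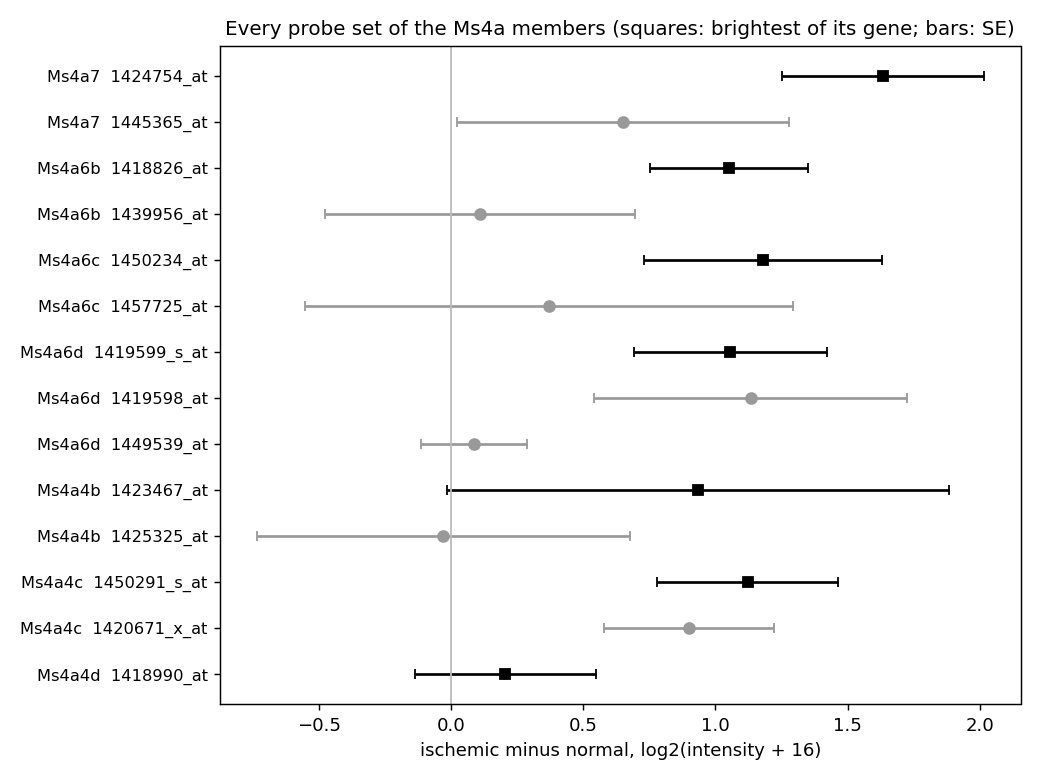
The horizontal axis gives the difference, ischemic minus normal, on the log2(intensity + 16) scale for each of the 14 probe sets of the 7 members, with SE as bars. Black squares are the brightest probe set of a gene and grey circles the others, of which Ms4a4b has 1 at −0.029 and Ms4a6d 1 at 1.13.

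The members differed in how they varied from array to array, which is given here as a description over 8 arrays that share their group differences. Pearson's r was 0.936 between Ms4a6c and Ms4a6d, 0.930 between Ms4a6b and Ms4a4c and 0.869 between Ms4a6b and Ms4a6d. With each group centred on its own mean these were 0.872, 0.805 and 0.677, so arrays of 1 group also varied together in these genes. Ms4a6b and Ms4a6c, with aligned promoters, had an r of 0.768, and 0.482 after centring. Ms4a4b and Ms4a4c, the other such pair, had an r of 0.365, and 0.184 after centring. Ms4a7 had an r of 0.741 with Ms4a6b and 0.142 after centring. With Ms4a6c its r was 0.489, and −0.276 after centring, and with Ms4a6d 0.545, and −0.257 after centring. Ms4a4d had an r of at most 0.241 with any other member.

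Marker lists of cell types were set beside the members, array by array, as a description. The macrophage list, of which 14 of 15 genes were measured, had a mean of 8.93 to 10.18 in ischemic and 8.47 to 8.81 in normal arrays, so its groups did not overlap. All 14 of its genes had a positive difference, with a median of 0.67, and 0 passed limma. Groups were apart with ischemic higher in 4 of them, beside 1.89% of all genes. These 4 were Mrc1, the mannose receptor, at 2.08 ± 0.31 (SE), Cx3cr1, the fractalkine receptor, at 1.77 ± 0.40, Fcgr1, the high-affinity IgG receptor, at 1.71 ± 0.43, and Adgre1, which encodes F4/80, at 1.11 ± 0.27. The brightest macrophage genes, Lyz2 (lysozyme) and Csf1r, the CSF-1 receptor, differed by 0.39 ± 0.23 and 0.63 ± 0.29. The smallest differences were those of C1qa at 0.027 ± 0.70, Mertk at 0.14 ± 0.38 and Cd163 at 0.23 ± 1.02. The mean of this list had an r of 0.898 with Ms4a6d, 0.861 with Ms4a6b, 0.814 with Ms4a6c, 0.738 with Ms4a7 and 0.663 with Ms4a4c over the 8 arrays. After centring within groups these were 0.775, 0.662, 0.621, 0.311 and 0.197. For Ms4a4b r was 0.050 and for Ms4a4d −0.057. The monocyte list, of 7 measured genes, had an r of 0.839 with Ms4a6d, 0.816 with Ms4a6c, 0.575 with Ms4a6b, 0.388 with Ms4a7 and 0.366 with Ms4a4c. After centring these were 0.874, 0.806, 0.451, 0.074 and 0.071, so for Ms4a6d and Ms4a6c they were above those of the macrophage list. Without normal 1 and ischemic 3, the arrays farthest from the median of both genes, r with the monocyte list was −0.019 for Ms4a6d and 0.422 for Ms4a6c, and with the macrophage list 0.843 and 0.900. For Ms4a4b r with the monocyte list was −0.390, and for Ms4a4d 0.062.

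The members were also set against the macrophage markers in the same array. When the mean of the macrophage list was taken off in each array, the groups overlapped in all 7 members. In Ms4a7 and the Ms4a6 genes the gaps before that step were narrow, for Ms4a6c 9.37 in ischemic 5 against 9.33 in normal 3. The list mean was itself higher in ischemic arrays, so overlap was likely beforehand and says little about these genes. Ms4a4b, Ms4a4c and Ms4a4d had overlapped before that step. The share of all genes that overlap after it was not computed, and the part of macrophages in the differences was not tested. Ms4a7 kept the largest remainder, at −0.70 ± 0.43 (SD) in the 5 ischemic arrays and −1.51 ± 0.81 (SD) in the 3 normal ones, a difference of 0.82. Normal 1 at −0.58 was then above 4 of the 5 ischemic arrays. For Ms4a6b, Ms4a6c, Ms4a6d and Ms4a4c the differences were 0.24, 0.36, 0.24 and 0.31, for Ms4a4b 0.12 and for Ms4a4d −0.61, the only negative one. The list mean itself differed by 0.82. These remainders compare the same arrays and are given with no test.

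**Figure D3:**
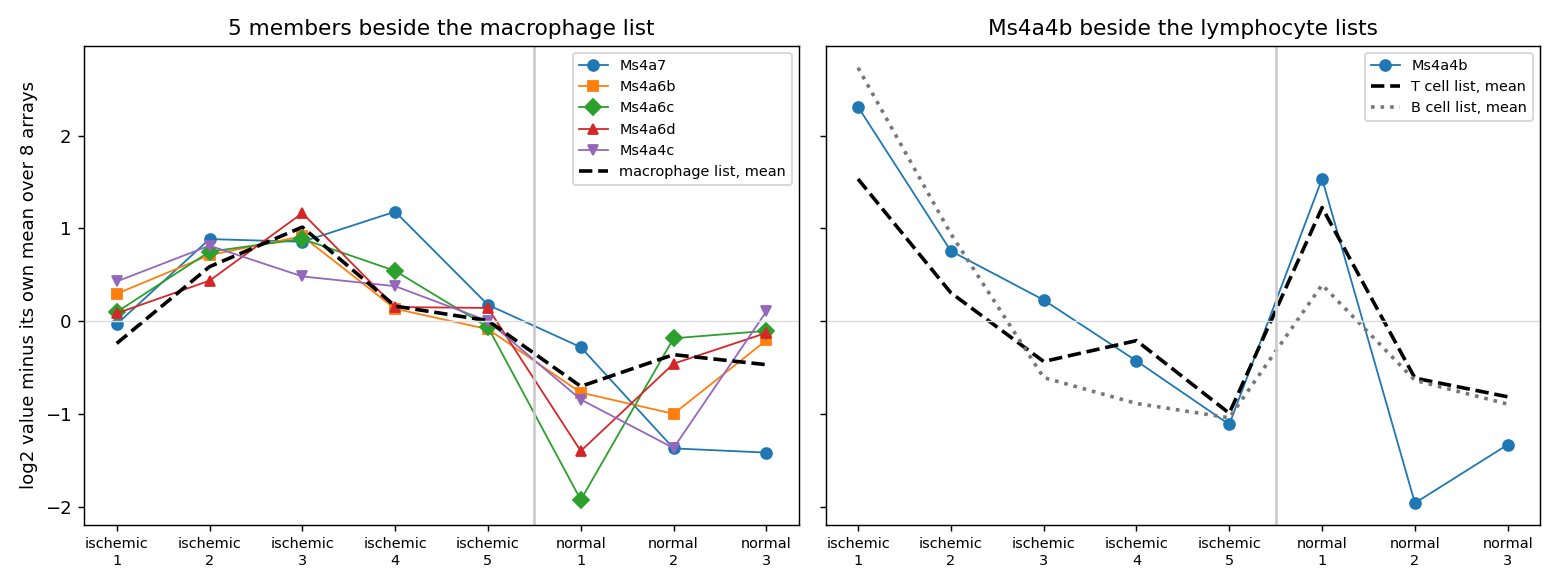
The vertical axis gives each log2 value minus its own mean over the 8 arrays, and the horizontal axis the arrays, ischemic on the left of the grey line and normal on the right. Lines join the values of 1 gene or list mean and imply no order of arrays. On the left, Ms4a7, the Ms4a6 genes and Ms4a4c are drawn with the macrophage list mean, and on the right Ms4a4b, which peaks in ischemic 1 and normal 1, is drawn with the T cell and B cell list means.

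Ms4a4b went with lymphocyte genes instead, most closely with T cell genes over the 8 arrays. The T cell list, with 9 of 13 genes measured, had a mean of 7.58 in ischemic 1, 6.35 in ischemic 2 and 7.27 in normal 1, and of 5.06 to 5.84 in the other 5 arrays. Its mean had an r of 0.926 with Ms4a4b over the 8 arrays, 0.961 after centring within groups and 0.935 without ischemic 1 and normal 2, the arrays where Ms4a4b was most extreme. Cd3e, a chain of the T cell receptor complex, was at 9.65, 8.06, 6.32, 7.80 and 4.81 in ischemic arrays 1 to 5, against 8.84, 7.12 and 5.53 in normal arrays 1 to 3, high in the same arrays as Ms4a4b. Lat, a T cell signalling adaptor, was at 7.47 in ischemic 1 and 7.59 in normal 1, and at 5.36 to 6.39 in the other 6 arrays. Cd3g, another chain of the receptor complex, was at 8.53 in ischemic 1 and 7.96 in normal 1. Not every gene of the list had this pattern. Cd8b1 was highest in normal 2, at 7.70, against 6.46 in ischemic 1 and 6.36 in normal 1. The T cell list as a whole had a median difference of 0.0017, with 5 of its 9 genes positive and 0 past limma. That median had no settled sign, at 0.70 without normal 1, −0.37 without ischemic 1, 0.67 with the replicate block and −0.24 with ribosomal protein centring.

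The mean of the B cell genes was high in the same arrays. The B cell list, with 8 of 9 genes measured, had a mean of 8.79 in ischemic 1, 7.0 in ischemic 2 and 6.45 in normal 1, and of 5.02 to 5.45 in the other 5 arrays, and an r of 0.846 with Ms4a4b. Its 8 genes all had positive differences, with a median of 0.62 (−0.066 without the arrays of high Xist signal and 0.039 without ischemic 1) and 0 past limma. Cd79b, part of the B cell receptor, was at 8.95 in ischemic 1 and 7.52 in normal 1. Fcrla stood out in ischemic 1 alone, at 10.86. It was at 6.61 in ischemic 2 and 7.10 in normal 1, and higher than that in normal 2, at 7.37. Ms4a1, the CD20 gene, was at 8.47, 6.59, 4.82, 4.15 and 4.35 in ischemic arrays 1 to 5, against 5.30, 4.92 and 4.38 in normal arrays 1 to 3. The NK cell list, with 8 of 9 genes measured, had an r of 0.676 with Ms4a4b, and its means ran from 5.10 to 5.67 in ischemic and from 5.18 to 5.81 in normal arrays. Its brightest genes, Prf1 (perforin) and the receptor gene Klrd1, differed by −0.58 and −0.13, and its receptor gene Ncr1 was near the low end of the scale in all arrays, between 4.13 and 4.33. After centring within groups, r with Ms4a4b was 0.837 for the B cell list and 0.837 for the NK cell list. Without ischemic 1 and normal 2 it was 0.833 for the B cell list and 0.930 for the NK cell list. The latter was near the 0.935 of the T cell list. The part of lymphocytes in the Ms4a4b signal was not tested.

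Of the other 10 measured Ms4a genes, mostly dim, 9 had positive differences, from −0.054 to 0.81 over the 10 with a median of 0.23, and 0 passed limma (lowest adjusted p 0.838). Only Ms4a10 had groups apart, at 4.72 ± 0.10 (SD) in the 5 ischemic arrays and 4.39 ± 0.13 (SD) in the 3 normal ones, close to the low end of the scale. Ms4a8a was at 7.53 in ischemic 1 and 6.90 in ischemic 3, and between 4.68 and 5.31 in the other 6 arrays, with a difference of 0.67 ± 0.70 (SE). Ms4a3, a gene of blood progenitors, differed by 0.024 ± 0.30. Along the chromosome, the 6 genes with the largest differences lay between Ms4a1 and Ms4a2. All 6 were members, and the members were chosen by such differences in these arrays, so this is no separate result. The family's relatives Tmem176a and Tmem176b, known from dendritic cells and macrophages, went the other way. Tmem176a averaged 9.17 ± 0.38 (SD) in the 5 ischemic arrays and 9.72 ± 0.39 (SD) in the 3 normal ones, and Tmem176b 9.70 ± 0.44 and 10.23 ± 0.35, with overlapping groups and neither past limma (adjusted p = 0.808 and 0.848).

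**Figure D4:**
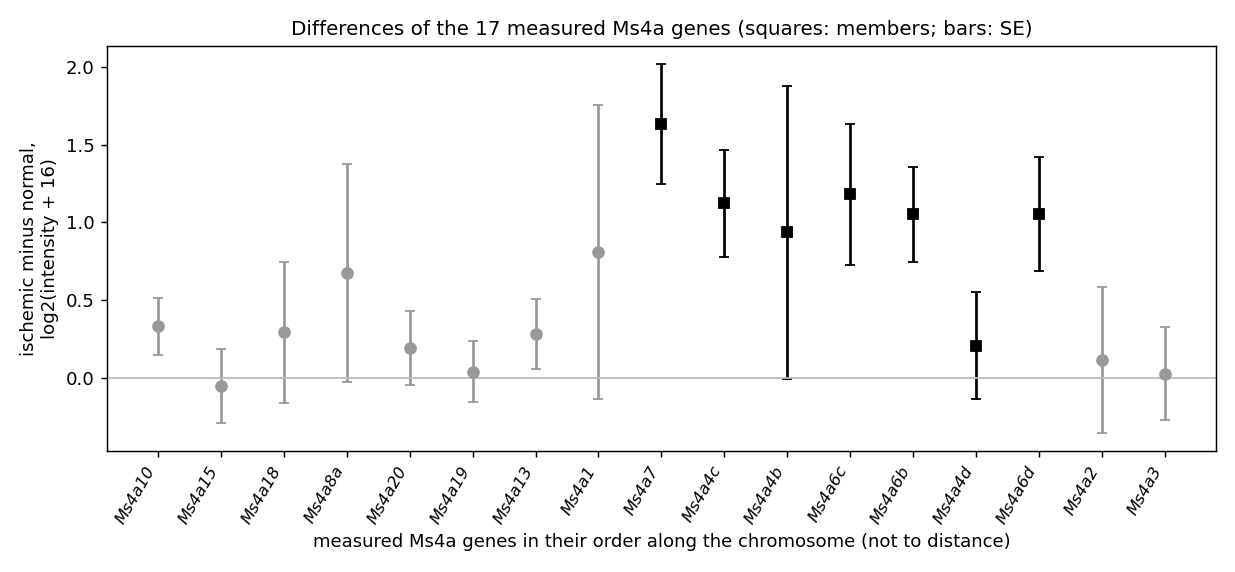
The 17 measured Ms4a genes are placed along the horizontal axis in chromosome order, not to distance, and the vertical axis gives the difference, ischemic minus normal, on the log2(intensity + 16) scale with SE as bars. Black squares are the 7 members, of which Ms4a4d is the lowest at 0.21, and grey circles the other 10, of which Ms4a1 is the highest at 0.81.

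Of 8 receptors and adaptors that MS4A proteins are linked to, 7 were measured, all with positive differences and a median of 0.41, and 0 passed limma. That median was 0.084 without normal 1, 0.67 without normal 3 and 0.11 without the arrays of high Xist signal. The brightest, Tyrobp, the adaptor that couples Trem2 to signalling, differed by 0.41 ± 0.29 (SE), and Fcer1g, the shared gamma chain of Fc receptors, by 0.77 ± 0.34. Trem2, whose soluble form is linked in humans to the MS4A locus, was between 4.60 and 7.30 in ischemic and between 4.29 and 7.21 in normal arrays. Clec7a, the beta-glucan receptor Dectin-1, differed by 0.74 ± 0.56. Monocyte genes, 7 of 9 measured, had a median of 0.35 with 6 positive, and interferon-stimulated genes, 10 of 13 measured, had a median of 0.27 with 7 positive, and 0 passed limma in either list. The monocyte median was 0.0018 without normal 1, 0.21 without ischemic 3 and 0.042 with ribosomal protein centring, and the interferon median was 0.11 without normal 1 and 0.013 with ribosomal protein centring. F13a1, a monocyte and macrophage transglutaminase, and Plac8 were the brightest of the monocyte genes, at 0.57 ± 0.33 and 0.22 ± 0.26. Rsad2 and Oas1a, both antiviral effectors, were the brightest of the interferon list, at −0.44 ± 0.51 and 1.10 ± 0.37.

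Lists for other cell types were examined in the same arrays. Proximal tubule genes, 9 of 9 measured and all with negative differences, had a median of −3.09, with means of 6.20 to 7.90 in ischemic and 9.15 to 10.73 in normal arrays, and 0 passed limma. In 7 of them every ischemic array was below every normal array, beside 3.42% of all genes. The list mean had an r of −0.798 with Ms4a4c and −0.725 with Ms4a6b over the 8 arrays, and −0.316 and 0.097 after centring within groups, and its part in the member differences was not tested. Endothelial genes had a median of −1.09 over 8 genes, and −0.59 without ischemic 1. Fibroblast genes had a median of 0.57 over 10 genes, dendritic cell genes 0.20 over 9, neutrophil genes −0.026 over 8, and mast cell and basophil genes 0.11 over 9, with 0 past limma in each. Their brightest genes were Tek and Cdh5 for endothelium, Thy1 and Col1a2 for fibroblasts, Irf8 and Itgax for dendritic cells, S100a9 and Csf3r for neutrophils, and Gata2 and Cma1 for mast cells and basophils, and those of the proximal tubule were Aqp1 and Kap. With ribosomal protein centring the dendritic cell median was −0.10 and the mast cell and basophil median −0.018, and the neutrophil median was 0.013 with median centring.

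Genes with the most similar pattern were sought among all genes by Pearson's r over the 8 arrays, as a description with no test. The highest r of 18193 genes over 8 arrays can be this high by chance, so the names below mark no cell type. For Ms4a7 they were P2ry6, a nucleotide receptor of myeloid cells (0.939), Rpl6 (0.934) and Tead3 (0.929). Ms4a6b was closest to Selenos (0.974), Ung, a DNA repair enzyme (0.973), and Ctsc, a lysosomal protease of leukocytes (0.968). Ms4a6c was closest to Pitpna (0.990), Lcp1, the leukocyte actin bundler L-plastin (0.981), and C5ar1, the receptor of complement C5a (0.980). For Ms4a6d they were Akirin1 (0.973), Ccl9, a chemokine of macrophages (0.970), and Eif4ebp1 (0.966). The closest to Ms4a4c were Hacd4 (0.991), Zfp622 (0.972) and Wipf1, a regulator of actin in leukocytes (0.966). Ms4a4b was closest to Adap2 (0.981), Itgb3bp (0.974) and 1700126A01Rik (0.951), and Ms4a4d to Loxl1 (0.978), Pate6 (0.974) and Chp2 (0.969). Without the 2 arrays farthest from a member's median, r was 0.718 for Ccl9 with Ms4a6d and 0.762 for Zfp622 with Ms4a4c, and at least 0.795 for all other genes named here.

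Without the 3 arrays of high Xist signal, leaving 3 ischemic and 2 normal arrays, the differences were 2.13 for Ms4a7, 0.92 for Ms4a6b, 0.60 for Ms4a6c and 0.78 for Ms4a6d. They were 1.21 for Ms4a4b, 0.92 for Ms4a4c and 0.0081 for Ms4a4d. The groups were apart with ischemic higher in 5 of 7 members in these arrays, the fifth being Ms4a4b, beside 10.5% of all genes. Among the 3 arrays of high Xist signal, 2 ischemic and 1 normal, Ms4a7 differed by 0.71, Ms4a6b by 1.27, Ms4a6c by 2.35 and Ms4a6d by 1.66. In these 3 arrays Ms4a4b differed by −0.0026. Without ischemic 1 the same 4 members, and no others, had groups apart, beside 3.69% of all genes. For these 4 that too was fixed in advance.

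**Figure D5:**
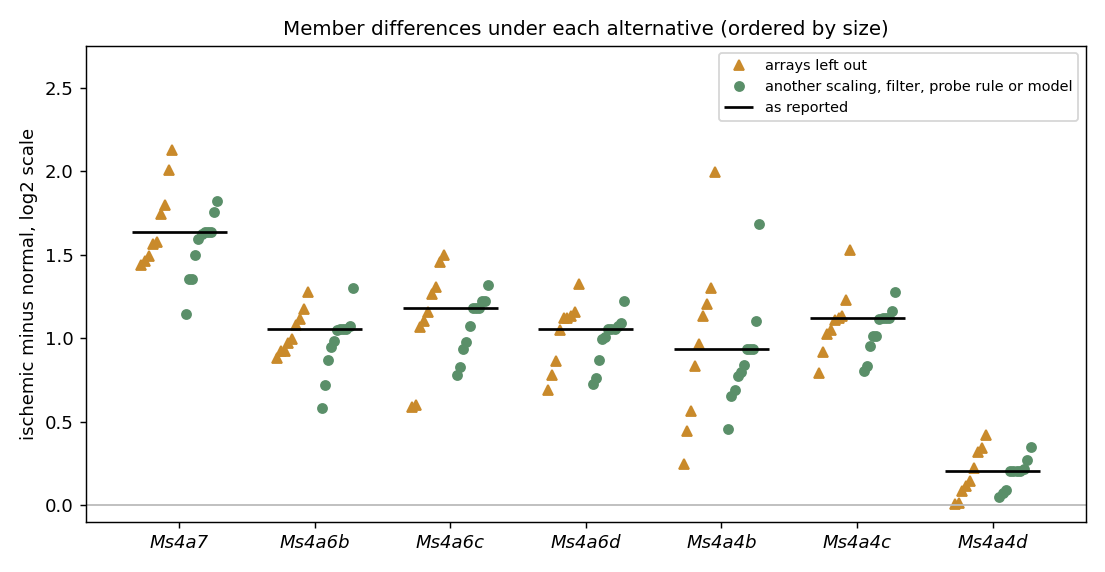
The vertical axis gives the difference, ischemic minus normal, of each member on the log2 scale, with the reported value as a black line. Triangles leave out arrays and circles use another scaling, filter, probe set rule or model, each set ordered by size. No value in the plot is below 0, and Ms4a4b, from 0.25 to 1.99, spreads most.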

How the data were processed

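The values are linear intensities per probe set, deposited by the authors in 1 table of 8 arrays, and what software, background correction and scaling lie behind them is not given in the sources used here. Cells were sorted, RNA was isolated with Qiagen miRNeasy and amplified with NuGEN WT-Ovation Pico, per the labels' protocols. Intensities were taken as log2(value + 16) and quantile normalized over 45101 probe sets, since array medians spanned 0.30 on the log2 scale. Of these, 64 controls were left out, and 34945 carried 1 symbol in the platform annotation, 932 several and 9160 none listed. No brightness filter was used on the resulting 18193 genes. Groups came from the titles. The groups were set against each other in limma 3.58.1 (R 4.3.3), adjusted by Benjamini-Hochberg with a threshold of 0.05. The step was tested on simulated data with independent noise of equal size in every array. An array that stands apart, as ischemic 1 does, was not simulated. Nothing in the labels says that the normal samples are separate animals, so p-values measure the spread between these samples. The number of arrays limits the precision. Members and marker lists were chosen with earlier results of these data known. Named genes are the members, all other Ms4a genes and the 2 brightest genes of each list. The 3 genes most like each member and checks of the labels are also named. Macrophage genes with groups apart or with the smallest differences, Cd3g, Cd8b1, Trem2, Clec7a and Ncr1 were chosen after their values were seen. Figures used matplotlib 3.10.9.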

Additional observations from a re-analysis of the deposited data

Results flagged for a closer look

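Among the ischemic arrays of the 7 members, the other Ms4a genes, their Tmem176 relatives and S100a4, 20 groups in all, 2 had a single array far from the rest, and chance flags about 1 in 20 groups. Ms4a2, the IgE receptor beta chain gene, was at 6.26 in ischemic 1, where the other 4 ischemic arrays lay between 4.14 and 4.74. Ms4a19 was at 4.70 in ischemic 4, where the others lay between 4.29 and 4.34, all close to the low end of the scale.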

How the results depend on the processing

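All 7 member differences stayed above 0 and short of the limma threshold under each scaling, filter, model and left-out array. Outside these settings, Ms4a4b was below 0 with its second probe set, at −0.029, and in the arrays of high Xist signal alone, at −0.0026. Over these settings the differences ran from 1.14 to 2.13 for Ms4a7, 0.58 to 1.30 for Ms4a6b, 0.59 to 1.5 for Ms4a6c, 0.69 to 1.32 for Ms4a6d, 0.25 to 1.99 for Ms4a4b, 0.79 to 1.53 for Ms4a4c and 0.0081 to 0.42 for Ms4a4d, which dropped out above the 40th percentile of brightness. The number of all genes past the threshold, 0 as reported, was 208 with ribosomal protein centring, 31 with an intensity trend, 15 above the 40th percentile of brightness, 5 with array weights, 2 with the mean of probe sets, and 1 each with a pseudocount of 1 and with Xist signal as a block. With single arrays left out it ran from 0 to 112, the latter without normal 3. The cause was not tested. A list of 8 of the other Ms4a genes with Tmem176a and Tmem176b had a median of 0.20, and of −0.53 above the 40th percentile of brightness, which is the value of Tmem176b. The median of the dendritic cell list was −0.23 without normal 1 and 0.62 without normal 3. The neutrophil median was −0.52 above that percentile and the proximal tubule median −4.02 without normal 3. Same-numbered deviations from the group means correlated at 0.160, −0.088 and 0.101. Differently numbered arrays were not compared, so this cannot show whether replicate numbers pair the arrays. With the replicate block 0 genes passed and Ms4a7 was at 1.59 and Ms4a4b at 1.68. Dim genes such as Ms4a4d are limited by signal over background, for which no measure was used here.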
